A study of Mus musculus with 6 samples.

Results

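The gelsolin family was followed in hematopoietic progenitors with and without active Notch1, starting from Scin, which encodes scinderin (also called adseverin). The members were 8 genes, Scin, Gsn, Vil1, Vill, Avil, Capg, Flii and Svil, taken by name. All 17 probe sets that the platform annotation assigns to them were used, of 45037 probe sets other than controls on the array, and all 8 genes were measured. The set was chosen by the log2 intensity of Scin in N1IC against WT, where Scin had a large difference, and the family was built around it. The N1IC against WT values of the members are therefore given as a description, with no p-value.

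The cells were LSK cells, bone marrow cells without lineage markers and with cKit and Sca1 on their surface, among which are stem cells and early multipotent progenitors. RNA of 6 mice aged 5 weeks was measured, 1 array each. The 3 WT mice carried Mx1-cre+, and the 3 N1IC mice carried lox-stop-lox N1-IC together with Mx1-cre+, so that Cre removes the stop in front of the active intracellular part of Notch1. Both groups shared the Cre transgene and the 3 injections of polyIC, which induces Cre, at 20 mcg per g from the age of 21 days, with cells sorted 2 weeks after the last injection. The Mx1 promoter answers interferon in many tissues, so Cre acts in other marrow and body cells as well as in LSK cells. The treatment text of the labels names floxed Ncstn alleles instead, and the groups here follow the genotype labels. WT held 2 males and 1 female (replicate 2), and all 3 N1IC mice were female. Each sample is labelled as from 1 mouse, and littermates are not identified.

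Gelsolin family proteins bind actin and are built from repeats of a common gelsolin domain. Most of them sever actin filaments when calcium rises, stay on the new barbed end as a cap, and are released by the membrane lipid phosphatidylinositol bisphosphate, after which filaments can grow again. In blood cells they are known for remodelling the cortex during platelet shape change, secretion, phagocytosis and migration. Scinderin was found in secretory cells and takes part in exocytosis, gelsolin is the broadly expressed member with a secreted plasma form, and the villin branch adds a headpiece that bundles filaments.

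The region before the Scin start site is shown because Scin had the largest difference in the family and because the groups differ in Notch1, whose active part works with the DNA-binding protein RBPJ. It is the 250 bases upstream of the annotated start, from RefSeq on build GRCm38.p6, chr12:40134229-40134478, minus strand, printed 5′ to 3′. Capitals would mark the core that RBPJ binds, searched as GTGGGAA and as its shorter form TGGGAA on both strands, where every match of the longer motif is also a match of the shorter one.
Scin: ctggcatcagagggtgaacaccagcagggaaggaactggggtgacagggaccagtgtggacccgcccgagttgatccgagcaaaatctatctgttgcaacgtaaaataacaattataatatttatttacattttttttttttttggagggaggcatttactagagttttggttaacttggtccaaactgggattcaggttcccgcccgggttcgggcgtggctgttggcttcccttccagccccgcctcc
Neither motif was in this window, which says only that these letters are not in these bases. The table of promoters held 9 windows for 7 of the 8 members, those other than Svil. GTGGGAA lay in 3 of them, against 5.42% of all 32851 promoter windows of that length, and TGGGAA lay in 4, against 21.6%. Several of the 9 windows belong to Gsn. By gene, GTGGGAA was in Gsn and Capg, against 6.18% of all 27025 genes. TGGGAA was in Vil1 as well, against 24.1% of genes. With so few members nothing is read from these shares. The matches are shown with 20 bases on each side, the motif in capitals, to set them beside Scin.
Gsn, window 1, motif on the opposite strand, chr2:35256122-35256168, plus strand: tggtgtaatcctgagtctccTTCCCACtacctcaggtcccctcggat
Gsn, window 3, chr2:35282270-35282316, plus strand: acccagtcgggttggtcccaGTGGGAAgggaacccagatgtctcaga
Capg, longer motif, chr6:72549568-72549614, plus strand: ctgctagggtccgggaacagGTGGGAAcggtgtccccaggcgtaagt
Capg, shorter motif, chr6:72549489-72549534, plus strand: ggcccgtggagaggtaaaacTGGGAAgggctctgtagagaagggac
Vil1, shorter motif on the opposite strand, chr1:74409227-74409272, plus strand: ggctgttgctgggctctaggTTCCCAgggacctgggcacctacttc
The windows of Vill, Avil and Flii and the window 2 of Gsn held neither motif. A match is a run of letters and not a measured binding site. Of the members with a match, Capg was lower in N1IC, while Gsn and Vil1 overlapped between the groups on their brightest probe sets. The part of these matches in the values below was not tested.

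Across the arrays, median intensity lay between 89.0 and 92.4, and no 2 arrays were identical. Arrays of one group correlated at Pearson's r of 0.985 to 0.992 over all probe sets, and arrays of different groups at 0.968 to 0.975. Hes1, a direct target of Notch, stood at 8.15 ± 0.44 (log2 intensity, SD, n = 3) in WT and 11.89 ± 0.16 in N1IC. Notch1 itself stood at 12.19 ± 0.16 and 12.93 ± 0.11, although its probe set may lie outside the N1-IC allele and so checks little. Of the surface proteins that the gate selects for, the gene of cKit was read and that of Sca1 was not. Kit, which encodes cKit, stood at 11.76 ± 0.18 in WT and 11.51 ± 0.06 in N1IC. Of 6 listed LSK genes, 5 fell in N1IC by limma at an adjusted threshold of 0.05, and none of these is a positive marker of the gate. Kit, the remaining gene, did not pass, although all its N1IC arrays lay narrowly below its WT arrays. Some genes of mature neutrophils, which the gate should remove, were bright in both groups, with S100a8 at 13.66 ± 0.52 in WT and 12.96 ± 0.25 in N1IC. Others of that list were dimmer, with Mmp8 at 8.96 ± 2.10 in WT and 6.31 ± 0.64 in N1IC. Cxcr2 stood at 7.22 ± 0.52 in WT and 5.57 ± 0.52 in N1IC. In bulk RNA, fewer cells of a type and less RNA per cell cannot be told apart.

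In the family as a whole, Scin was far higher in N1IC, Svil was modestly higher, Vill was clearly lower, and Capg and Flii were modestly lower. Gsn, Avil and Vil1 overlapped between the groups on their brightest probe sets. The N1IC arrays lay wholly above the WT arrays on 4 of the 17 probe sets and wholly below them on 5, where 29.5% of all probe sets did not overlap in either direction. In the limma fit over all probe sets, 6 of the 17 passed the adjusted threshold of 0.05, where 7.92% of all probe sets passed. Of these, 3 were higher and 3 lower, where 3.16% and 4.76% of all probe sets passed in those directions. The 6 were Scin, both Svil probe sets, Vill, 1 of 2 Capg probe sets and 1 of 3 Flii probe sets. Since the contrast chose Scin, nothing is read from these shares. The count fell to 2 without N1IC replicate 1 or N1IC replicate 3, where 3.7% and 3.86% of all probe sets passed. It fell to 3 without WT replicate 2 or WT replicate 3, where 4.85% and 4.24% of all passed. Both probe sets left at 2 were those of Scin and Vill.

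**Figure D1:**
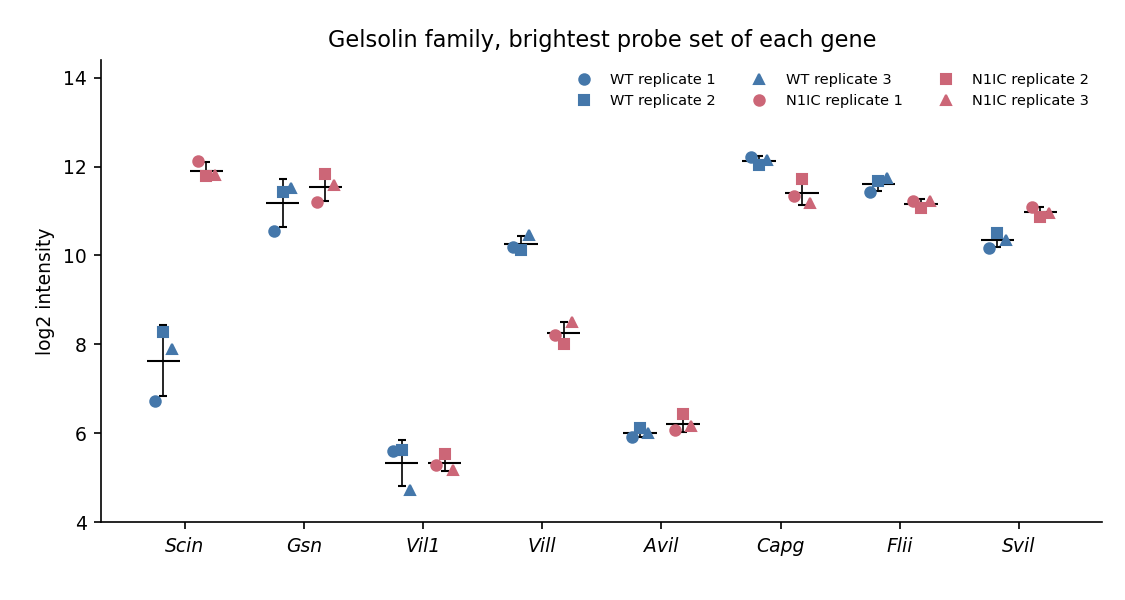
Log2 intensity (vertical axis) of the brightest probe set of each gelsolin family gene, with 1 point per array, WT in blue and N1IC in red, marker shape giving the replicate, and black bars the mean ± SD (n = 3). Scin sits between 6.73 and 8.27 in WT and between 11.79 and 12.13 in N1IC, and Vill shows the opposite order; heights should be compared within a gene, since probe sets differ in brightness.

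Scin severs and caps actin filaments in a calcium-dependent way. Its only probe set, 1450276_a_at, read 6.73, 8.27 and 7.90 on WT replicates 1, 2 and 3 and 12.13, 11.79 and 11.81 on N1IC replicates 1, 2 and 3 (log2 intensity). The 3 N1IC arrays lay within 0.34 of one another and all stood at least 3.52 above the highest WT array, while WT replicate 1 was the lowest by over 1 unit. On the linear scale the WT arrays read 106, 309 and 240 intensity units, against 4470.02, 3535 and 3593 in N1IC. The means were 7.63 ± 0.81 in WT and 11.91 ± 0.19 in N1IC (SD, n = 3), a log2 fold change of 4.27 ± 0.40 (SE), or 19.3-fold.

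Among 18193 genes on their brightest probe sets, 15 had a higher log2 fold change than Scin. The spread of Scin was unequal between the groups. Of all genes, 2.98% had a larger SD among WT arrays than Scin, and 32.7% had a larger one among N1IC arrays. Without WT replicate 1 the log2 fold change was 3.82, and against the only WT female, replicate 2, it was 3.64. These are smaller than 4.27 because both settings drop the lowest WT array.

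Scin is known from megakaryocytes and secretory cells, so markers of megakaryocytes, mast cells and T cells were read beside it. Of 8 T-lineage genes, all 8 rose in N1IC in the gene-level limma fit, and their summed intensity was between 1683 and 2568 on WT arrays and between 27423 and 32994 on N1IC arrays. Of 8 mast cell genes, 1 rose, the carboxypeptidase Cpa3, and the sum was between 1905 and 5217 in WT and between 7624 and 12889 in N1IC. Of 7 megakaryocyte genes, 6 fell, with sums between 6804 and 9970 in WT and between 1026 and 1524 in N1IC. The megakaryocyte sums were thus lower where Scin was higher, and the T-lineage and mast cell sums were higher with it, without overlap between the groups. Cpa3 made up much of the mast cell sum, at a log2 fold change of 1.97. Of the genes that did not pass, Mcpt4 stood at 3.84 without overlap, Cma1 at 2.13 and Tpsb2 at 1.53. Fcer1a and Tpsab1 stood at 0.55 and 0.20, and Ms4a2 and Hdc at -1.02 and -1.23, so that the list did not move as one.

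Within WT, the order of Scin was replicate 1, then 3, then 2 from lowest to highest. The T-lineage sums had this order, at 1683, 2247 and 2568, and so did the mast cell sums, at 1905, 4645 and 5217. The sums of the macrophage, mature neutrophil and erythroid lists followed it too. Within N1IC, Scin was highest on replicate 1, as were the mast cell sum at 12889 and the erythroid sum at 3094. The T-lineage sum was highest on replicate 2. No marker of any list read 0, because array intensities have a floor above it. The part of these cell types in the Scin difference was not tested.

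The genes with the pattern nearest to Scin were found from the root mean square difference over the 6 arrays between log2 values, each gene centred on its own mean, among 15738 genes outside the sex chromosomes and with a settled symbol. The nearest was Cd160, a receptor of natural killer and T cells, at a difference of 0.33 log2 units. It read 5.72, 7.57 and 7.22 on the WT arrays and 10.46, 10.85 and 10.74 on the N1IC arrays. Gzmb, the cytotoxic protease granzyme B, followed at 0.37. Cd3e and Cd3d, chains of the CD3 complex of the T cell receptor, lay at 0.47 and 0.49, the T cell surface molecule Cd5 at 0.53, and the adhesion molecule Mpzl2 at 0.55. All 6 were higher in N1IC, by log2 fold changes between 3.27 and 4.85, and all 6 were lowest of all arrays on WT replicate 1. Both follow largely from the choice, since the measure takes in the group difference of Scin and its low WT replicate 1. Within N1IC the 6 genes differed from Scin, since all 6 were highest on replicate 2, where Scin was lowest by a narrow margin. The nearest family member, Svil, lay at 1.86, and the farthest, Vill, at 3.18, distances that mostly reflect their log2 fold changes.

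**Figure D2:**
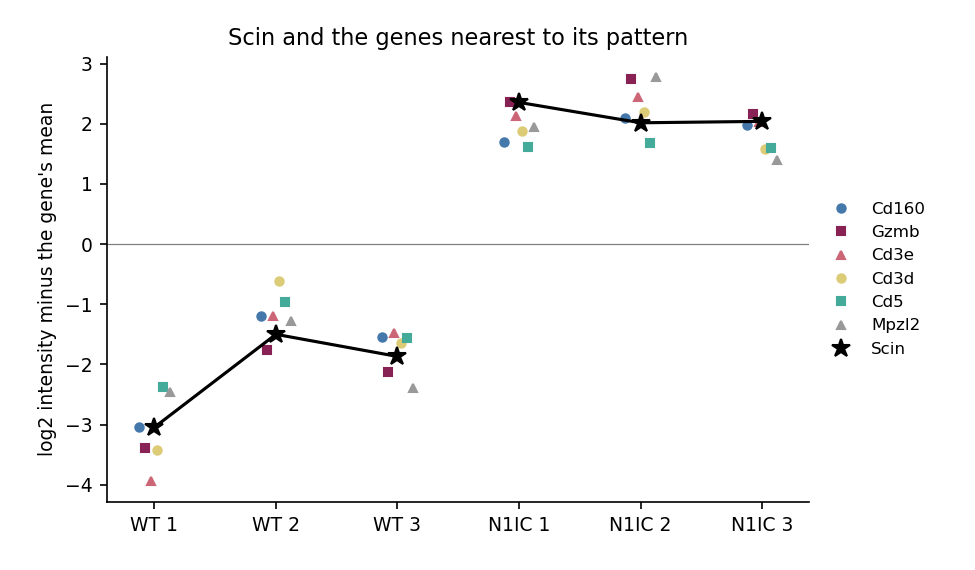
Log2 intensity minus each gene's mean over the 6 arrays (vertical axis) for Scin (stars, joined within a group) and the 6 genes with the smallest root mean square difference from it, by array. All 7 genes are lowest on WT replicate 1, and on N1IC replicate 2 the 6 other genes are at their highest while Scin is not.

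Gsn encodes gelsolin, the founding member, which severs filaments in the cytoplasm and clears actin from plasma in its secreted form. Its brightest probe set, 1436991_x_at, read 10.55, 11.44 and 11.53 on WT replicates 1, 2 and 3 and 11.20, 11.83 and 11.58 on N1IC replicates 1, 2 and 3. Replicate 1 was the lowest array in each group, and the groups overlapped. The means were 11.17 ± 0.54 and 11.54 ± 0.32 (SD, n = 3), a log2 fold change of 0.37 ± 0.30 (SE), which is smaller than the SD among WT arrays. Probe sets whose names end in x_at can bind related transcripts, and 4 of the 6 Gsn probe sets are of that kind.

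The other Gsn probe sets had log2 fold changes between 0.10 and 0.44, so that all 6 were higher in N1IC on average. The dimmest of them, 1456568_at, was the only one without overlap, by 0.01 between the highest WT and the lowest N1IC array, and it lay at the 38.5th percentile of intensity over all probe sets. The 5 brighter probe sets followed one another across the 6 arrays, with Pearson's r between 0.854 and 0.996 for pairs, a description of 1 set of RNAs that they share. Without WT replicate 1 the log2 fold changes of the 4 brightest probe sets lay between -0.04 and 0.06, so that their difference between the group means rested on that array. The dimmest stayed at 0.25.

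On WT replicate 1 the summed neutrophil genes were also low, at 29562 against 67793 and 67001 on replicates 2 and 3, and on N1IC replicate 1 they were lowest of their group, at 23190 against 28748 and 33428. Of the 7 neutrophil genes, 1 fell and none rose between the groups, with sums between 29562 and 67793 in WT and between 23190 and 33428 in N1IC. The macrophage sums, of another cell type rich in gelsolin, were 2104, 5540 and 3878 on WT replicates 1, 2 and 3 and 2138, 2354 and 5241 on the N1IC replicates, also lowest on replicate 1 of each group. The stroma list, whose cells express gelsolin, had sums between 2033 and 2446 in WT and between 3540 and 4513 in N1IC, with 1 of its 7 genes called, the receptor Pdgfrb, which rose by 0.88 on the log2 scale and made up most of the sum. The list's median log2 fold change was -0.05, and Col1a2, a collagen chain, stood at -1.12 without overlap, so the higher sum is not a shift of the stroma genes together. The stroma sum was lowest on replicate 1 of each group too. So was the B-lineage sum, at 15841 in WT and 3420 in N1IC. A low replicate 1 was thus not particular to cell types rich in gelsolin. The part of these cell types in the Gsn values was not tested.

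**Figure D3:**
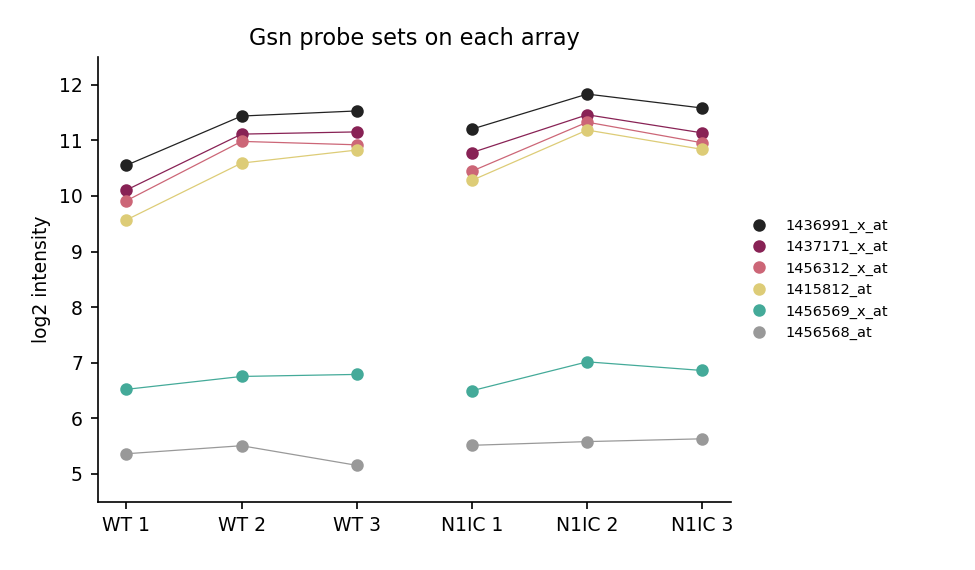
Log2 intensity (vertical axis) of the 6 Gsn probe sets on each array (horizontal axis), with 1 colour per probe set and lines joining arrays of a group for reading only. The 5 brighter probe sets are lowest on replicate 1 in each group, and the ranges of WT and N1IC overlap on 5 of the 6 probe sets.

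The villin branch held the clearest lower member. Vill encodes villin-like protein, which resembles villin and carries a headpiece. It read 10.19, 10.12 and 10.45 on the WT arrays and 8.22, 8.02 and 8.50 on the N1IC arrays. Every N1IC array was at least 1.62 below every WT array, and the arrays of a group lay within 0.49 of one another. The means were 10.26 ± 0.18 and 8.25 ± 0.24 (SD, n = 3), a log2 fold change of -2.01 ± 0.16 (SE), or 4.02-fold lower in N1IC. Among all genes, 304 had a lower log2 fold change. Without any 1 array it stayed between -2.14 and -1.89, and against the WT female alone it was -1.87.

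The 6 genes with the pattern nearest to Vill, listed after its values were seen, were Galnt5, Paqr7, Tcaf1, Meis1, Khdrbs3 and Timp3. Their root mean square differences from it were between 0.11 and 0.13, nearer than any gene came to Scin, whose spread in WT was wider. Meis1, a homeodomain partner of Hox proteins in stem cells, read 9.96, 9.77 and 10.21 in WT and 8.14, 7.99 and 8.15 in N1IC. Like Vill, it was highest on replicate 3 and lowest on replicate 2 in each group, but it was picked for its likeness to Vill over these arrays. Of the 6 LSK genes listed, which include Meis1, 5 fell, and their sums were between 27468 and 31846 in WT and between 14132 and 14701 in N1IC. Their part in the Vill difference was not tested.

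Vil1 and Avil were dim. Vil1 encodes villin, which bundles and severs the filaments of intestinal microvilli, and read 5.61, 5.63 and 4.72 in WT and 5.28, 5.54 and 5.17 in N1IC. The groups overlapped, with means of 5.32 ± 0.52 and 5.33 ± 0.19 (SD, n = 3) and a log2 fold change of 0.01 ± 0.27 (SE). Avil encodes advillin, known from sensory neurons and tuft cells, and read 5.91, 6.11 and 5.996 in WT and 6.06, 6.43 and 6.16 in N1IC. These overlapped too, with a log2 fold change of 0.21 ± 0.12 (SE). Their mean intensities lay at the 36.8th and 46.1st percentile over all probe sets, and without detection calls neither gene is called absent. The tuft cell genes Pou2f3, Trpm5 and Dclk1 stood at group means between 3.63 and 4.65 in both groups.

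Capg caps barbed ends but does not sever, and is known from macrophages. Its brighter probe set, 1450355_a_at, read 12.22, 12.03 and 12.16 in WT and 11.33, 11.73 and 11.18 in N1IC. All N1IC arrays were lower, the nearest by 0.30, and N1IC varied more than WT. The means were 12.13 ± 0.10 and 11.41 ± 0.28 (SD, n = 3), a log2 fold change of -0.72 ± 0.16 (SE), or 1.65-fold lower. A dim second probe set, 1447803_x_at, went the same way by -0.44 ± 0.12 without overlap. Of 9 macrophage genes, 2 rose and none fell, with sums that overlapped between 2104 and 5540 in WT and between 2138 and 5241 in N1IC. The list was split, with C1qb at a log2 fold change of 2.01 and Cd68, which overlapped and did not pass, at -1.04. The neutrophil sums above were lower in N1IC on average, with the ranges overlapping. The part of either cell type in the Capg difference was not tested.

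Flii encodes flightless, a member that joins leucine-rich repeats to the gelsolin repeats and is also known as a partner of nuclear receptors. Its brightest probe set, 1448189_a_at, read 11.42, 11.67 and 11.74 in WT and 11.22, 11.06 and 11.23 in N1IC. The second, 1416044_at, read 11.08, 11.34 and 11.37 in WT and 10.75, 10.67 and 10.56 in N1IC. On both probe sets all N1IC arrays lay below all WT arrays, by at least 0.19 and 0.33. Their log2 fold changes were -0.44 ± 0.11 and -0.60 ± 0.11 (SE, n = 3). The remaining and dim probe set, 1439356_at, went the other way, at 0.25 ± 0.18 (SE) with overlap.

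Svil encodes supervillin, the largest member, which ties actin and myosin to the membrane and does not act as a severing protein. Its brighter probe set, 1460694_s_at, read 10.18, 10.50 and 10.35 in WT and 11.10, 10.86 and 10.95 in N1IC. The other, 1460735_at, read 9.08, 9.10 and 9.22 in WT and 9.90, 9.69 and 9.69 in N1IC. Neither overlapped between the groups, with gaps of 0.36 and 0.47, and N1IC replicate 1 was the highest array on both. Both gave a log2 fold change of 0.63, with SEs of 0.12 and 0.099 (n = 3), or 1.54-fold. Against the WT female alone the values were 0.47 and 0.66. A name ending in s_at marks probes shared by more than one transcript.

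**Figure D4:**
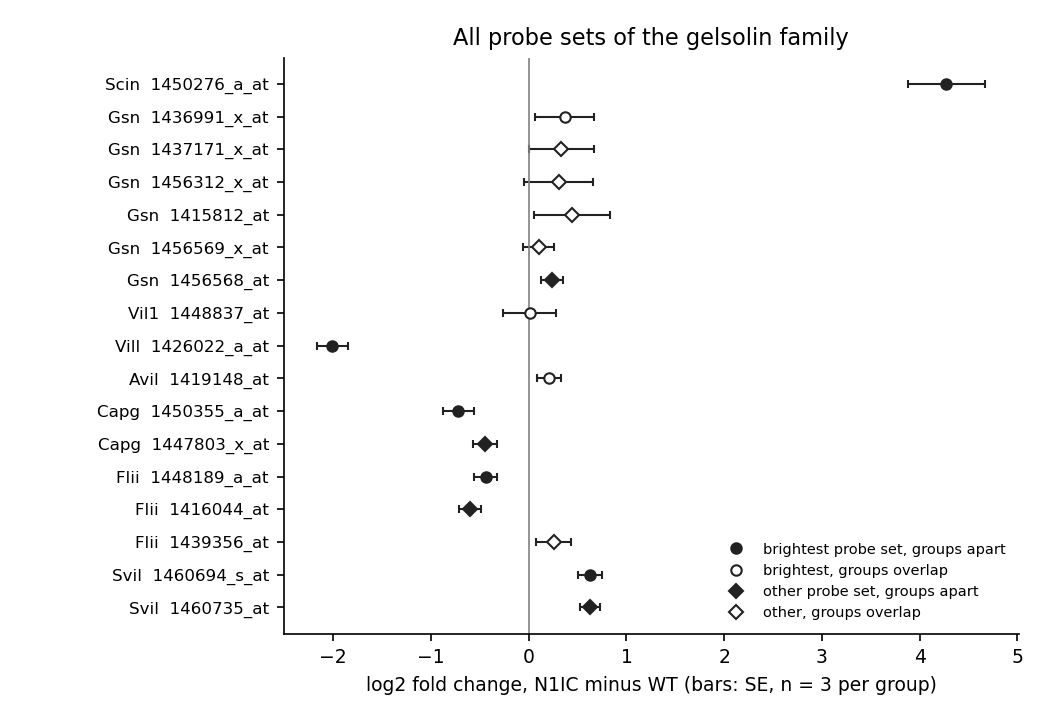
Log2 fold change (N1IC minus WT, horizontal axis) of all 17 probe sets of the gelsolin family, with SE as bars (n = 3 per group); filled symbols mark probe sets whose groups do not overlap, circles the brightest probe set of a gene and diamonds the others. Scin stands at 4.27 and Vill at -2.01, while the other 15 probe sets lie between -0.72 and 0.63.

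The other genes of the actin machinery were read to set the family beside them. Of 75 measured genes in 6 lists that hold no family member, 3 rose and 9 fell in the gene-level limma fit with Benjamini-Hochberg adjustment, or 16%, where 11.8% of all 18193 genes passed, 3.47% higher and 8.31% lower. The median log2 fold change of the 75 genes was -0.0024, against -0.0083 over all genes. Their log2 fold changes lay between -3.33 and 0.98. The count of 12 was 7 without WT replicate 3 or N1IC replicate 2, where 6.41% and 7.48% of all genes passed. It was 6 without N1IC replicate 1 or N1IC replicate 3, where 6.65% and 7% passed. With sex as a covariate, a fit that sets N1IC against the single WT female, it was 3, where 2.47% passed.

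Filament monomers and the other severing proteins made up the nearest functional neighbours of the family. None of 6 actin genes passed, and none had an unadjusted p under 0.05. Actb, cytoplasmic beta actin, read 13.86 ± 0.04 in WT and 13.97 ± 0.02 in N1IC (SD, n = 3), and Actg1, gamma actin, 13.57 ± 0.005 and 13.54 ± 0.01. Of 14 genes of filament severing and disassembly, none passed by limma, and 2 had an unadjusted p under 0.05. Cfl1, the main cofilin, had a log2 fold change of -0.02 ± 0.07 (SE, n = 3), and Coro1a, coronin of blood cells, -0.04 ± 0.07. The log2 fold changes of that list lay between -0.39 and 0.26. With 3 arrays a group, differences of this size may go undetected.

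Among 15 capping and monomer-binding genes 1 fell, Eps8, which caps barbed ends and bundles filaments. It was 3.82-fold lower, at 7.72 ± 0.30 against 9.65 ± 0.42 in WT (SD, n = 3), and all 3 of its probe sets were lower. The limma fit gave it an adjusted p of 0.00725. Neither the fit with a sex term nor that of female arrays only kept its call. Among 18 nucleation and elongation genes 2 fell. Enah, an elongation factor of the Ena/VASP family, was 2.79-fold lower (adjusted p = 0.023 by limma), in 4 of 6 probe sets, and lost its call without N1IC replicate 1 or N1IC replicate 3, with the replicate block, with a sex term and with female arrays only. The formin Diaph1 fell by 0.34 on the log2 scale on its brightest probe set alone of 3, and lost its call without any 1 array.

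The list of crosslinkers, bundlers and membrane linkers held 6 of the 12 genes called, of 15 measured, with 4 lower and 2 higher. Tpm2, a tropomyosin that coats filaments, was 10.0-fold lower, at 7.41 ± 0.09 against 10.74 ± 0.21 in WT (SD, n = 3), and all 4 of its probe sets were lower. The plastins Pls3 and Pls1, which bundle filaments, were 4.63-fold and 4.04-fold lower, and fascin, Fscn1, the bundler of filopodia, was 2.56-fold lower, in 3 of 4 probe sets. Pls1 was dim, at 6.35 ± 0.42 in WT and 4.33 ± 0.11 in N1IC. With 32 added to each intensity before the log, its log2 fold change went from -2.02 to -1.13. The adjusted p by limma was 0.000237 for Tpm2, 0.000607 for Pls3, 0.00413 for Pls1 and 0.0011 for Fscn1. The genes that rose, named after their values were seen, were Actn1, alpha-actinin, by 0.78, and Ezr, the membrane linker ezrin, by 0.78 on the log2 scale. The 4 lower genes were called in each fit that left out 1 array, while only 1 gene of the list rose in each of these fits other than that without WT replicate 2. With a sex term 3 of the list fell and none rose.

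Of 7 genes that supply phosphoinositides or calcium signals to the family, 1 rose and 2 fell. The lipid kinase Pip5k1b, which makes phosphatidylinositol bisphosphate, fell by 0.53, and the phospholipase Plcb2, which cleaves it, fell by 0.75 on the log2 scale. Plcg1, the phospholipase downstream of antigen receptors, rose by 0.33. The adjusted p by limma was 0.0266 for Pip5k1b, 0.038 for Plcb2 and 0.0451 for Plcg1. No gene of this list passed in any fit that left out 1 array, so these 3 calls needed all 6 arrays. The calmodulin genes of the list were not analysed here.

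**Figure D5:**
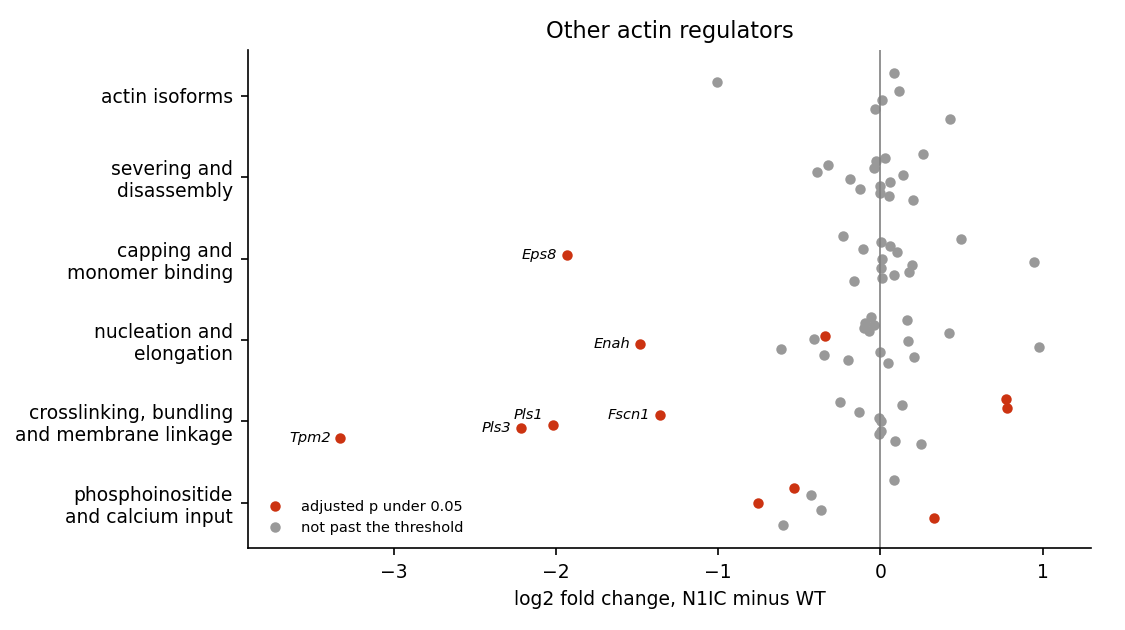
Log2 fold change (N1IC minus WT, horizontal axis) of 75 actin regulators outside the gelsolin family in 6 lists, with 1 point per gene on its brightest probe set; red points passed an adjusted p of 0.05 by limma, and names are given for those beyond a log2 fold change of 1 in size. Of the 12 red points 6 lie among crosslinkers and bundlers, where Tpm2 is the lowest at -3.33, and the actin and severing lists have none.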

How the data were processed

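Intensity was measured on 1 Affymetrix array per mouse, from 5 ng of total RNA amplified with the Nugen Ovation system, per the labels' protocols; amplifying so little RNA may add noise at low levels. The deposited intensity values are linear, judged from their range, and were made by the authors with RMA, per the submitters' processing notes; its version is not given in the sources used here. RMA compresses fold changes of dim probe sets. No detection call was used.

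Of 45101 probe sets, 34945 had 1 gene symbol, 932 several, 9160 none and 64 were control probe sets. Current symbols came from RefSeq (GRCm38.p6) by gene ID for 34741 of those with 1 symbol. Log2 values were fitted under R 4.3.3 in limma (version 3.58.1) by lmFit followed by eBayes, without covariates and two-sided, with 4 residual and 2.04 prior degrees of freedom and Benjamini-Hochberg adjustment at 0.05, once over all 45037 probe sets other than controls and once over 18193 genes, each on the probe set with the highest mean. On simulated data with 18193 genes, the gene-level test found 62% of genes shifted by 1 log2 unit and 88% of genes shifted by 2 log2 units, with 10 false calls. The package data.table (1.17.8), Python 3.11.15, pandas 2.3.3 and matplotlib 3.10.9 served for reading and plotting.

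The members, gene lists and tests were chosen with earlier results of these data known. Named genes were all family probe sets, up to 4 called genes of each actin list by smallest p (or else the 2 brightest), and the 6 genes nearest to Scin. The precision is limited by the number of arrays. Each p-value sets the difference between the groups against the spread among arrays of a group. In the fit reported it takes no account of the unbalanced sex. Sums of markers add linear intensities of 10 lists. Lists not described with the results gave 5 of 6 B-lineage genes lower, none of 5 erythroid genes called (none at an unadjusted p under 0.05 either, by limma), and 1 higher and 2 lower of 7 epithelial genes. Alternatives were a replicate block, sex as a covariate, female arrays only, 2 normalizations, a brightness filter, 2 priors, a pseudocount, a stricter threshold, other treatments of probe sets, and leaving out each array.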

Additional observations from a re-analysis of the deposited data

How the results depend on the processing

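Of 17 family probe sets, 6 passed in the fit reported, where 7.92% of all probe sets passed. The count was 2 with the replicate block (3.57% of all), 2 with sex as a covariate (1.12%) and 2 at an adjusted p of 0.01 (2.12%). When 1 array was left out it was 2 to 5, where 3.7% to 7.15% of all passed. Calls thus became fewer over the whole array too. With female arrays only, which left 1 WT array, the log2 fold changes of Scin and Vill were 3.64 and -1.87. Scin passed in all 17 alternatives and Vill in 16 of 17, the exception being female arrays only. The 12 actin regulators called, of 75, became 3 with sex as a covariate, where 2.47% of all genes passed. They became 6 at an adjusted p of 0.01 (4.09% of all) and 6 to 9 when 1 array was left out (6.41% to 10.6%). The replicate block gave 11 (7.11%). Diaph1 turned to 0.0869 on the log2 scale with the mean of its probe sets. The fits with fewer arrays, or with a covariate, also have fewer degrees of freedom. Same-numbered arrays did not pair, with correlations of their deviations from the group means of -0.09, -0.09 and 0.10. No called family probe set changed direction under any setting. The other normalizations, the brightness filter, the priors and the pseudocount of 32 kept both counts within 1.5 times. Signal over background is not known here for the dim probe sets.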
